A study of Mus musculus with 78 samples.

Results

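The genes described here are 8 members of the Nodal pathway, taken by symbol from the deposited tables: Nodal, Gdf3, Tdgf1, Acvr2b, Foxh1, Lefty1, Lefty2 and Smad7. All 8 were found, among 54446 genes in the RNA-seq tables and 54435 in the TT-SLAM-seq table, and all 8 passed the filter on low values in every comparison. The study asked what follows the rapid loss of TRIM28, a corepressor that keeps endogenous retroviruses (ERVs) silent, in mouse embryonic stem cells (mESCs) of the V6.5 line. TRIM28 carried an FKBP tag in a line grown from picked single colonies, and 500 nM dTAG-13, which sends tagged protein to the proteasome, was compared with the solvent DMSO. Nascent RNA was measured by TT-SLAM-seq, in which a 15 min pulse of 4-thiouridine marks new transcripts, with 3 libraries per group (DMSO, and 2, 6 or 24 h with dTAG-13). Poly(A) RNA of that line was sequenced from 3 libraries per group as well, with a further group at 96 h. In both assays the DMSO group is labelled 0 h, and no DMSO group is labelled with a later time. Time in culture and dTAG-13 therefore cannot be told apart in them. A second line, called shERV here, carried doxycycline-inducible hairpins against IAP, MMERVK10C, MMERVK9C and MMETn RNA and gave 3 total RNA libraries in each of 3 groups, named DMSO, dTAG-13 (24 h) and dTAG-13 with doxycycline (Dox). The labels give Dox before treatment for all 3 shERV groups, whereas the methods give it for the third alone, and the groups are named here by their titles. Untagged, untreated parental V6.5 cells and neural progenitor cells (NPCs) in DMSO, grown without feeders on laminin, had 3 RNA-seq libraries each. ChIP-seq at 24 h compared dTAG-13 with DMSO in 3 libraries per group for H3K27Ac and H3K9me3 and in 2 per group for RNA polymerase II (RNAPII) and MED23, a Mediator subunit. The mESCs were grown on mouse embryonic fibroblast feeders with serum and LIF and were depleted of feeders before collection. The study calls the replicates of its RNA-seq and TT-SLAM-seq biological, a term it defines, for another assay, as wells of a culture plate. The sources used here do not say whether the sequenced replicates were cultured separately beyond that, so the p-values measure the spread between libraries.

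Nodal is a secreted ligand of the TGF-beta family that signals through activin receptors, among them the type II receptor Acvr2b, and needs the membrane-anchored co-receptor Tdgf1 (Cripto). Gdf3 is a related ligand that uses the same co-receptor. Activated SMAD2 and SMAD3 act at their targets with the forkhead factor Foxh1, and the targets include Nodal itself and the secreted inhibitors Lefty1 and Lefty2, so that the pathway both feeds and limits its own signal. Smad7 is an intracellular inhibitor induced by signalling of this family. In the early embryo the pathway maintains the epiblast and patterns the axes, and its genes are active in pluripotent cells in culture.

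All positions are on GRCm38 (mm10). Lefty2 (180893108 to 180899103) and Lefty1 (180935022 to 180938400) lie in the same orientation on the plus strand of chromosome 1. Nodal lies at 61417972 to 61425338 on the plus strand of chromosome 10. Tdgf1 lies at 110939603 to 110946158 on the minus strand of chromosome 9, and Acvr2b at 119402118 to 119434995 on its plus strand. Gdf3 lies at 122605403 to 122610087 on the minus strand of chromosome 6 and Foxh1 at 76668225 to 76669948 on the minus strand of chromosome 15. In DMSO, the strongest MED23 peak that reached within 2 kb of the gene start had its summit 1353 bases after the start of Nodal, inside the first intron, and 1130 bases before Lefty1, 4228 bases before Lefty2 and 1436 bases before Tdgf1, outside the genes. These 4 summits are shown because the Nodal and Lefty genes are classical targets of the pathway and because the MED23 peaks of Tdgf1, Lefty1 and Lefty2 were the highest of the 8 genes in the first DMSO library. In the second, Tdgf1 and Lefty1 were again the highest and Lefty2 was not. Each window holds 201 bases centred on the summit in the first DMSO library, read 5′ to 3′ on the strand of the gene, and capitals mark 3 motifs searched on both strands: AATCCACA (a FOXH1 core), CAGAC (a SMAD box) and ATGCAAAT (the octamer bound by POU factors).
Nodal, chr10:61419225-61419425, plus strand: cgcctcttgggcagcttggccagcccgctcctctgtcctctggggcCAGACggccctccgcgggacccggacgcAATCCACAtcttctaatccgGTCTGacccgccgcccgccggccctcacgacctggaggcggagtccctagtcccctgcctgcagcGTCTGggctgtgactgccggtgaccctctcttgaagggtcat
Lefty1, chr1:180933792-180933992, plus strand: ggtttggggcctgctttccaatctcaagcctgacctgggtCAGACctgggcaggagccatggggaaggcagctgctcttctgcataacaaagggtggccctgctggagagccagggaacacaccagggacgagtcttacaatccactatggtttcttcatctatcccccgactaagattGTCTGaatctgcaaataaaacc
Lefty2, chr1:180888780-180888980, plus strand: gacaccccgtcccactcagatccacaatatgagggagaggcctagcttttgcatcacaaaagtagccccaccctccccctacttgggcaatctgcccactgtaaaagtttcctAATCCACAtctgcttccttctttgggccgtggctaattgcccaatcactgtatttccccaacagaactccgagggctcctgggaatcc
Tdgf1, chr9:110947494-110947694, minus strand: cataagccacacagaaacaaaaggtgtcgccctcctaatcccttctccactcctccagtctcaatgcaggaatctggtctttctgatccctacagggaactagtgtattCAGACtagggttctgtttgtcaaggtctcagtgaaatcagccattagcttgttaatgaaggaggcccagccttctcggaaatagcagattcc
The FOXH1 core was present once in the Nodal window, starting 26 bases before the summit, and once in the Lefty2 window, starting 13 bases after it, and in none of the windows of the other 6 genes, cut in the same way. Of all 63045 MED23 windows of that library, 0.977% held the FOXH1 core, as did 2.5% of the 1000 strongest. The SMAD box was present 3 times in the Nodal window, 2 times in the Lefty1 window and once each in the Tdgf1, Gdf3 and Acvr2b windows. Of all windows 40.6% held it, as did 45.3% of the 1000 strongest. None of the 8 windows held the octamer, which 3.45% of all windows did. A match is a run of letters and not a measured binding site.

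Depth behind the nascent values, as recovered from the FPKM, was 6480979 to 24260691 reads per library, and 98.3% to 99.4% of low values came out as whole reads within 0.1. The 8 genes had between 42 (Lefty2) and 7291 (Smad7) nascent reads in a library, so Lefty2 (42 to 181) and Foxh1 (46 to 246) were the least precise. RNA-seq files give no read counts, and the relative depth of their libraries ranged from 0.337 (24 h replicate 1) to 1.66, and no mRNA call at 24 h was lost without the shallowest library. Trim28 mRNA, which the degradation of the protein does not target, was 622 to 626 TPM in DMSO and 365 to 382 TPM after 24 h. The 6 pluripotency markers (Pou5f1, Nanog, Sox2, Zfp42, Esrrb and Dppa5a) summed to 3390 to 3720 TPM in DMSO, 2220 to 2540 TPM at 24 h and 288 to 330 TPM at 96 h. The 6 fibroblast markers (Col1a1, Col1a2, Col3a1, Thy1, Postn and Acta2) summed to 91.1 to 96.6, 73.4 to 88.1 and 1410 to 1480 TPM in the same groups. In such bulk samples, fewer cells of a type and less RNA per cell cannot be told apart. Relative to DMSO the median gene moved by a log2 difference of 0.21 in nascent RNA and 0.13 in mRNA at 24 h, and the medians of the libraries by 0.24 and 0.29, so members near no change depend on the scaling, as given beside each. Centred libraries, below, had their own median subtracted on the log2 scale, and voom is a fit of the recovered nascent reads that was added after seeing the data.

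In DMSO the co-receptor was by far the most abundant of the 8 mRNAs. Tdgf1 was 1063, 1072 and 1008 TPM (a unit scaled to transcript length and to depth), followed by Lefty1 with 195, 208 and 207 TPM. Gdf3 followed with 72.6, 76.4 and 76.4 TPM, above Foxh1 with 67.5, 70.6 and 68.7 TPM. Nodal, with 63.0, 67.8 and 64.2 TPM, overlapped Foxh1 in range. Lefty2, with 53.6, 61.0 and 56.0 TPM, lay below Nodal, and Smad7 was at 38.8, 39.2 and 38.9 TPM. Acvr2b was the lowest with 24.9, 22.0 and 25.3 TPM. Lefty1 and Lefty2 are near copies: of 1562 distinct stretches of 50 bases in the exons of Lefty1, 19.4% occur unchanged in Lefty2, so reads could be split between them. Of the Tdgf1 stretches, 6.32% occur in the processed pseudogene Tdgf1-ps1, which was listed at 129 to 142 TPM in DMSO and 6.04 to 9.25 TPM at 96 h, and its reads may come from Tdgf1.

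In NPCs the set was nearly silent except for Smad7, which was low, and the receptor. In every NPC library, Nodal and Gdf3 were listed at 0 TPM. The highest value of Tdgf1, Foxh1, Lefty1 and Lefty2 in any NPC library was 0.103 TPM (Foxh1). Smad7 was at 2.54, 3.56 and 2.49 TPM in NPCs, a log2 difference on the log2(TPM + 0.5) scale of -3.57 (SE 0.10, limma with Benjamini-Hochberg adjustment over all genes tested, adjusted p = 5.21e-10). Acvr2b was higher in NPCs, with 39.3, 39.4 and 37.4 TPM (log2 difference 0.68, SE 0.05, adjusted p = 7.39e-07). A gene passed where its adjusted p was under 0.05, and it was called where it also moved beyond 2-fold. By that rule 7 of the 8 genes were called lower in NPCs, beside 20.7% of the 17458 genes tested.

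The untagged parental cells separated the Lefty genes in opposite directions. Lefty1 was at 67.4, 61.4 and 63.1 TPM in parental cells against 195 to 208 TPM in the tagged line (log2 difference -1.66, SE 0.07, adjusted p = 6.7e-08), with no overlap. Lefty2 was at 73.0, 73.9 and 72.7 TPM against 53.6 to 61.0 TPM, higher in the parental cells (log2 difference 0.36, SE 0.05, adjusted p = 1.93e-04). Nodal, with 50.7, 51.2 and 52.0 TPM, was lower in parental cells (log2 difference -0.34, SE 0.04, adjusted p = 1.03e-04), as were Smad7 (-0.68, adjusted p = 3.21e-04) and Foxh1 (-0.45, adjusted p = 6.88e-04, but 0.123 with a pseudocount of 0.1). Tdgf1 was lower as well (-0.26, adjusted p = 8.9e-05), a call that did not hold once libraries were centred on their median (-0.07, adjusted p = 0.135). Gdf3 (log2 difference 0.05) and Acvr2b (0.01) did not pass, with adjusted p = 0.338 and 0.868, but both passed higher with centred libraries (0.24, adjusted p = 4.92e-04, and 0.205, adjusted p = 0.00403). In all, 1 member was called lower, beside 9.15% of genes, and 6 passed an adjusted p of 0.05, beside 66%. Tag, solvent and library set cannot be told apart in this comparison. Trim28 itself was called higher in parental cells, with 1387 to 1418 TPM against 622 to 626 TPM (log2 difference 1.16, adjusted p = 5.64e-10). The pluripotency markers named above summed to 5080 to 5180 TPM in parental cells against 3390 to 3720 TPM, and the fibroblast markers to 142 to 145 TPM against 91.1 to 96.6 TPM. The part of these in the differences was not tested.

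Nascent RNA of the ligand rose late. Nodal was at 7.63, 7.53 and 6.77 FPKM in DMSO, where FPKM is scaled to the whole gene span, introns included. It was at 9.22, 9.43 and 9.27 FPKM at 2 h, at 7.67, 8.46 and 7.25 FPKM at 6 h and at 13.3 to 15.0 FPKM at 24 h. The 24 h libraries lay above all others (log2 difference 0.90, SE 0.09, adjusted p = 8.6e-05), also with centred libraries (0.66, adjusted p = 0.00121). The 2 h libraries lay above those in DMSO without passing (log2 difference 0.33, SE 0.09, adjusted p = 0.07), and passed with voom on the recovered reads (0.41, adjusted p = 0.0158). The 6 h value overlapped DMSO. Gdf3, the other ligand, ran the other way, from 14.2, 13.1 and 8.48 FPKM in DMSO to 8.44, 6.34 and 7.21 FPKM at 24 h. Its groups at 24 h did not overlap (log2 difference -0.64, SE 0.21, adjusted p = 0.0322), but it missed the threshold when 24 h replicate 2 or 3 or DMSO replicate 1 or 2 was left out, with adjusted p between 0.0755 and 0.115.

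The co-receptor had an early high nascent value and a lower one by 24 h. Tdgf1 was at 13.9, 10.6 and 11.9 FPKM in DMSO, at 17.6, 18.3 and 16.7 FPKM at 2 h and at 16.9, 14.6 and 18.9 FPKM at 6 h, with every 2 h and 6 h library above every DMSO library. Both differences missed the threshold in the limma fit (log2 difference 0.52, SE 0.14, adjusted p = 0.0721 at 2 h and 0.46, SE 0.14, adjusted p = 0.0717 at 6 h) and passed with voom (adjusted p = 0.00125 and 0.0232). With centred libraries the first passed (0.57, adjusted p = 0.0252) and the second did not (0.39, adjusted p = 0.0668). At 24 h Tdgf1 was at 8.71, 9.41 and 11.4 FPKM, overlapping DMSO (log2 difference -0.29, SE 0.14, adjusted p = 0.129), and it was lower and passed with centred libraries (-0.54, adjusted p = 0.00729) and with voom (-0.62, adjusted p = 0.000199). The receptor Acvr2b was low, at 0.867, 0.772 and 0.896 FPKM in DMSO and 1.13, 1.14 and 1.35 FPKM at 24 h (log2 difference 0.34, SE 0.07, adjusted p = 0.00501). With centred libraries the 24 h difference was 0.10 (adjusted p = 0.311), and with voom 0.19 (adjusted p = 0.224).

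Among transducers and inhibitors, Smad7 (75367529 to 75395935 on the plus strand of chromosome 18, GRCm38) was the gene that passed at the earliest time. Smad7 was at 7.25, 6.45 and 5.39 FPKM in DMSO and at 10.5, 10.7 and 9.29 FPKM at 2 h, with no overlap (log2 difference 0.64, SE 0.12, adjusted p = 0.0224). It stayed above DMSO at 6 h, with 10.5, 11.2 and 10.1 FPKM (0.70, SE 0.12, adjusted p = 0.0111), and at 24 h, with 10.6, 9.24 and 9.09 FPKM (0.57, SE 0.12, adjusted p = 0.00377). The 2 h call was lost without 2 h replicate 1, 2 h replicate 2 or DMSO replicate 2 (adjusted p between 0.0798 and 0.0926), and the 6 h call without 6 h replicate 1 (adjusted p = 0.0505), with log2 differences between 0.60 and 0.71 in those fits. At 24 h with centred libraries it was 0.33 with adjusted p = 0.0554. Foxh1 was at 3.66, 4.56 and 4.99 FPKM in DMSO, 3.17, 2.7 and 3.79 FPKM at 2 h and 5.88, 5.29 and 5.55 FPKM at 24 h, with no comparison past the threshold. Lefty1 was at 24.0, 21.5 and 16.8 FPKM in DMSO and 14.6, 18.0 and 14.2 FPKM at 24 h (log2 difference -0.39, SE 0.17, adjusted p = 0.104). It was lower and passed with centred libraries (-0.64, adjusted p = 0.0121) and with voom (-0.68, adjusted p = 0.000371). Lefty2 stayed between 0.953 and 1.82 FPKM in all libraries and passed at no time, except that without 6 h replicate 2 it was higher and passed at 6 h (log2 difference 0.49, adjusted p = 0.0352, in a range of 0.199 to 0.494 over the libraries left out).

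Of the 8 genes, 1 passed at 2 h, 1 at 6 h and 4 at 24 h, beside 3.55%, 9.09% and 37.9% of the 13357 genes tested, so the share at 24 h was near the background. No nascent difference was called at any time, beside 0.225%, 0.569% and 3.4% of genes. At an unadjusted p below 0.05 there were 4, 4 and 5 of the 8, and voom also called none. The share of all genes at that p was not counted and is at least the share that passed. The 3 times share their DMSO libraries.

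**Figure D1:**
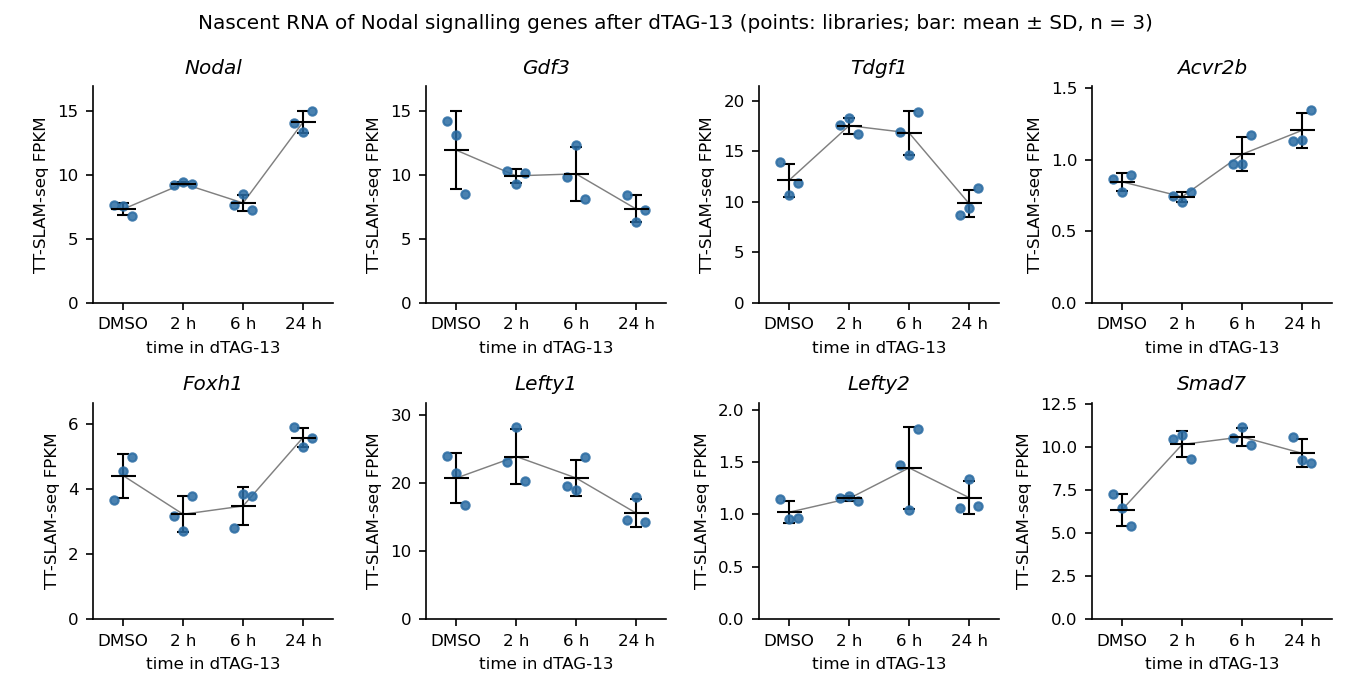
Nascent RNA (TT-SLAM-seq FPKM, scaled to the gene span) of the 8 genes in DMSO and after 2, 6 and 24 h of dTAG-13, 3 libraries per group; points are libraries, bars the mean ± SD, and lines join the means. Nodal at 24 h (13.3 to 15.0 FPKM) lies above its other libraries, Smad7 lies above DMSO at all 3 times, and Tdgf1 is above DMSO at 2 and 6 h and overlaps it at 24 h.

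The mRNA of the ligand peaked at 2 h. Nodal was at 63.0, 67.8 and 64.2 TPM in DMSO and at 93.7, 90.6 and 92.4 TPM at 2 h, clear of every other group (log2 difference 0.50, SE 0.05, adjusted p = 5.9e-05). It was at 56.0, 65.1 and 58.8 TPM at 6 h and 65.1, 61.7 and 63.2 TPM at 24 h, both overlapping DMSO. At 6 h it did not pass (log2 difference -0.12, adjusted p = 0.114), but it was lower and passed with centred libraries (-0.21, adjusted p = 0.00774) and without 6 h replicate 2 (-0.18, adjusted p = 0.0166). The 24 h log2 difference was -0.04 (SE 0.05, adjusted p = 0.568), and -0.33 with centred libraries (adjusted p = 9.19e-05). Gdf3 did not pass at 2 h (74.2 to 75.0 TPM), fell to 53.8, 63.9 and 61.8 TPM at 6 h (log2 difference -0.33, SE 0.06, adjusted p = 0.00143) and to 42.5, 42.8 and 46.6 TPM at 24 h (-0.77, SE 0.06, adjusted p = 9.52e-08).

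The mRNA of the co-receptor fell while that of the receptor rose. Tdgf1 was at 870, 830 and 801 TPM at 2 h against 1008 to 1072 TPM in DMSO (log2 difference -0.33, SE 0.07, adjusted p = 0.00532). It was at 911, 895 and 868 TPM at 6 h (-0.23, adjusted p = 0.0172, lost without 6 h replicate 3, DMSO replicate 1 or DMSO replicate 2, with adjusted p of 0.055 to 0.0604). At 24 h it was at 713, 738 and 710 TPM (-0.54, SE 0.07, adjusted p = 7e-06). Acvr2b went from 22.0 to 25.3 TPM in DMSO to 26.2, 28.4 and 27.8 TPM at 6 h (0.19, adjusted p = 0.0182, and 0.10, adjusted p = 0.155, with centred libraries) and to 44.3, 40.1 and 42.2 TPM at 24 h (0.80, SE 0.06, adjusted p = 2.11e-08). Its 6 h call was also lost without 6 h replicate 2, 6 h replicate 3 or DMSO replicate 2 (adjusted p from 0.0573 to 0.0923).

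Among the inhibitors, Lefty1 was lower from 6 h on, and the transducer Foxh1 was higher at 6 h. Lefty1 did not pass at 2 h (203, 194 and 190 TPM), fell to 142, 175 and 158 TPM at 6 h (log2 difference -0.37, SE 0.10, adjusted p = 0.00975) and was at 165, 156 and 159 TPM at 24 h (-0.35, adjusted p = 0.00556). Lefty2 was lower at 2 h, with 49.0, 42.4 and 46.8 TPM (-0.30, SE 0.09, adjusted p = 0.0354), a call lost on leaving out any of 5 of the 6 libraries (adjusted p from 0.0502 to 0.135). At 24 h Lefty2 was at 51.7 to 53.8 TPM (-0.12, adjusted p = 0.27, and -0.40, adjusted p = 0.00119, with centred libraries). Foxh1 rose at 6 h, with 77.9, 81.3 and 82.2 TPM (0.22, SE 0.05, adjusted p = 0.00323, but 0.13, adjusted p = 0.0577, with centred libraries), and at 24 h its direction depended on the scaling (0.08, adjusted p = 0.175, against -0.21, adjusted p = 0.0017, when centred). Smad7, higher in nascent RNA at all 3 times, was lower in mRNA at 24 h, with 36.5, 33.3 and 32.0 TPM against 38.8 to 39.2 TPM (-0.20, SE 0.05, adjusted p = 0.00383).

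Of the 8 genes, 3 passed at 2 h, 5 at 6 h and 5 at 24 h in mRNA, beside 15.3%, 33.9% and 67.9% of the 17922 genes tested, so that the share at 24 h was near the background. With centred libraries all 8 passed at 24 h, beside 70% of genes. No mRNA difference was called before 96 h, beside 0.374%, 0.965% and 12.2% of genes, although Gdf3 at 24 h was called with centred libraries (-1.06). At an unadjusted p below 0.05 there were 4, 7 and 5 of the 8. The share of all genes at that p was not counted. It is at least the share that passed, which was 67.9% at 24 h.

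Nascent and mRNA values did not move together at every gene. At 24 h Nodal had a nascent log2 difference of 0.90 and an mRNA difference of -0.04, and Smad7 had 0.57 and -0.20. At 2 h Tdgf1 had 0.52 in nascent RNA, which did not pass, and -0.33 in mRNA. The assays differ in scaling, since nascent FPKM cover the gene span and TPM the transcript, and the difference between them was not tested.

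**Figure D2:**
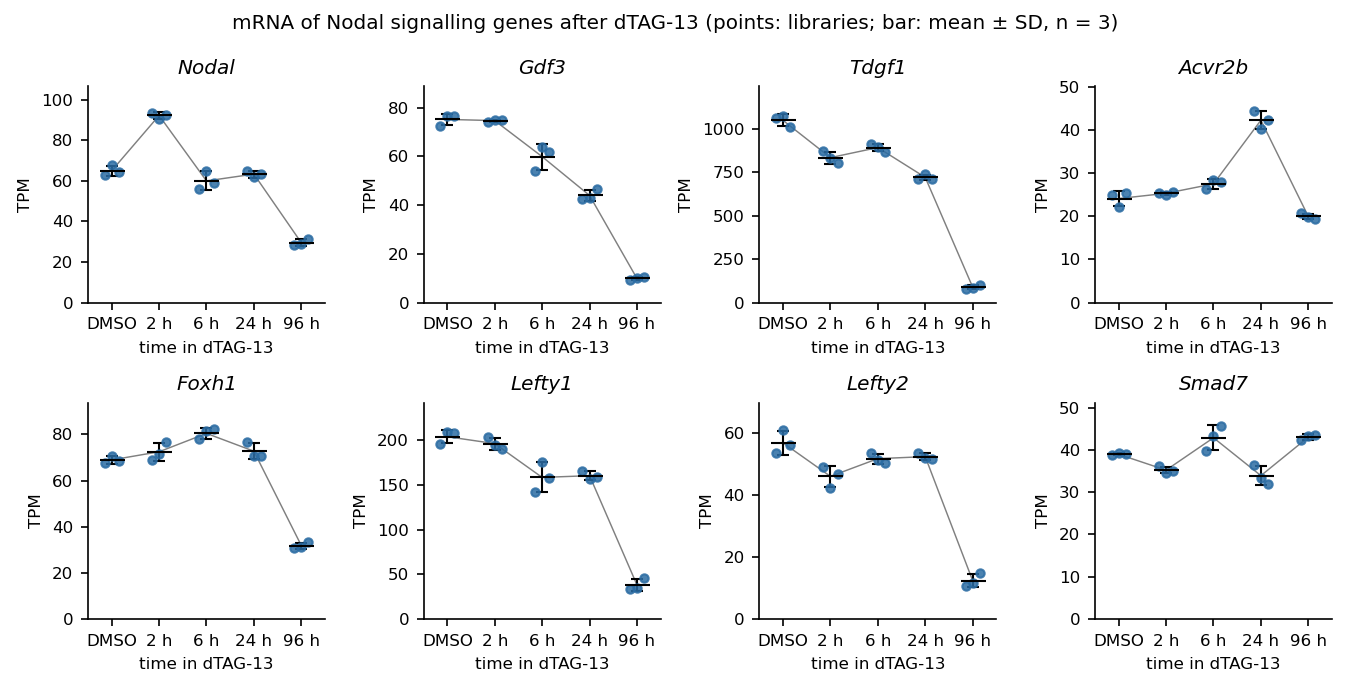
mRNA (TPM) of the 8 genes in DMSO and after 2, 6, 24 and 96 h of dTAG-13, 3 libraries per group; points are libraries, bars the mean ± SD, and lines join the means. Nodal peaks at 2 h (90.6 to 93.7 TPM), Acvr2b at 24 h (40.1 to 44.3 TPM), and all but Smad7 and Acvr2b lie far below DMSO at 96 h.

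By 96 h most of the set had fallen. Tdgf1 was at 79.9, 86.3 and 102 TPM, an 11.7-fold drop in the mean (log2 difference -3.55, SE 0.07, adjusted p = 6.66e-15). Gdf3 was at 9.24, 9.88 and 10.6 TPM (-2.87, SE 0.06, adjusted p = 2.16e-14). Lefty1 was at 33.9, 34.6 and 46.0 TPM (-2.41, SE 0.10) and Lefty2 at 10.8, 11.7 and 14.8 TPM (-2.16, SE 0.09). Nodal and Foxh1 had smaller differences, at 28.2, 28.9 and 31.5 TPM (-1.13, SE 0.05) and at 30.9, 31.4 and 33.3 TPM (-1.10, SE 0.05). None of these 6 overlapped DMSO, and 38.8% of all genes lay wholly below it. Acvr2b, at 20.7, 19.8 and 19.3 TPM, was slightly below DMSO (-0.26, SE 0.06, adjusted p = 5.3e-04) and far below its 24 h level (-1.06, SE 0.06, adjusted p = 2.68e-10). Smad7 was at 42.3, 43.2 and 43.5 TPM, above DMSO (0.14, SE 0.05, adjusted p = 0.0231) but below it with centred libraries (-0.14, adjusted p = 0.0227), so its direction depends on the scaling. With FPKM in place of TPM it was 0.02 (adjusted p = 0.702), and the call was also lost without 96 h replicate 2 or 3 or DMSO replicate 1 (adjusted p from 0.0549 to 0.0636).

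At 96 h, 6 of the 8 were called lower, beside 12.4% of the 17922 genes tested, and 8 passed, beside 80.3%. Against 24 h, 7 were called lower, beside 16.5% of genes, Acvr2b being the seventh. Each of the 6 pluripotency markers was called lower at 96 h, with log2 differences from -2.03 (Nanog) to -3.96 (Dppa5a), and Tdgf1, Gdf3, Lefty1 and Lefty2 fell within that range. The differences of Nodal and Foxh1 were smaller than those of all 6 markers. The endoderm markers summed to 15.0 to 19.3 TPM in DMSO and 78.5 to 83.4 TPM at 96 h, and the primitive streak markers were at 8.08 to 11.3 and 6.56 to 10.2 TPM. The fibroblast markers went from 91.1 to 96.6 TPM in DMSO to 1410 to 1480 TPM at 96 h. The part of other cell types in these differences was not tested.

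A further 40 genes were listed for context. They cover the Nodal and activin pathway and also hold TGF-beta ligands and a TGF-beta receptor, so counts over them are not counts of the Nodal branch alone. Of the 40, 35 were tested in the mRNA time course. In mRNA the numbers that passed higher were 2, 4, 19 and 23 over the 4 times, beside 8.25%, 18.4%, 42.9% and 42.9% of all genes tested, and the numbers that passed lower were 2, 6, 10 and 9, beside 7.02%, 15.5%, 25% and 37.4%. Before 24 h these shares were near or below the background. At 96 h, 13 were called higher and 1 lower, beside 20.3% and 12.4% of genes, and their median log2 difference was 0.71, beside 0.05 over all genes and -1.64 over the 8 members. The fibroblast marker sum was also higher at 96 h, as given above, and its part in these values was not tested. Among ligands, Tgfb2 went from 4.52 to 47.5 TPM (log2 difference 3.26, adjusted p = 5.71e-14), and Tgfb1 (1.05) and Tgfb3 (2.13) were called higher too. Gdf1 was the gene called lower, from 3.01 to 0.257 TPM (-2.18, adjusted p = 8.94e-06). The receptor Tgfbr2 (2.95) and the SMAD of this branch Smad3 (1.98) rose, as did the convertase Furin, which processes ligand precursors (2.26, from 27.9 to 136 TPM). The inhibitors Fstl3 (2.16), which binds activin, and Bambi (1.89), a decoy receptor, rose, and so did the ubiquitin ligase Smurf1 (1.04). The endoderm factor Sox17, from 0.853 to 22.9 TPM (4.18), and Foxa2 (1.38) were called higher, and both are also among the endoderm markers summed above. The ligand subunit Inha was higher (1.08). At 24 h 5 of the 35 were called, near the 12.2% of all genes, among them Inha, which was higher (1.76). The activin antagonist Fst (-2.43, from 9.45 to 1.39 TPM), Inhbb (-1.67) and Gdf1 (-1.56) were lower. In nascent RNA 22 of the 40 were tested, of which 3, 7 and 16 passed at 2, 6 and 24 h, all of them higher, where 1.58%, 7.82% and 32.3% of the genes tested passed higher. The direction at 24 h depends on the scaling. Over all genes 333 were called higher and 121 lower, against 141 and 241 with centred libraries. Counts over the 22 with centred libraries are not given. Called among them at 24 h was the SMAD corepressor Ski, which was higher (1.11, adjusted p = 1.75e-05).

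In the shERV line, the co-receptor was the member furthest below DMSO after 24 h of dTAG-13, and its libraries with Dox lay higher again. Tdgf1 was at 445, 493 and 482 TPM in DMSO, 268, 261 and 264 TPM with dTAG-13 and 442, 449 and 432 TPM with dTAG-13 and Dox. The difference from DMSO (log2 difference -0.84, SE 0.05, adjusted p = 6.5e-08) and the difference between Dox and no Dox (0.74, SE 0.05, adjusted p = 1.95e-07) both had groups that did not overlap. Gdf3 was at 28.6, 30.8 and 31.5 TPM, then 22.9, 19.8 and 21.8 TPM, then 31.2, 31.6 and 30.0 TPM (-0.49, SE 0.06, adjusted p = 4.14e-05, and 0.52, SE 0.06, adjusted p = 3.58e-05). The Dox libraries of Gdf3 overlapped DMSO.

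The ligand and Lefty1 were lower with dTAG-13, and the difference with Dox was smaller. Nodal was at 41.9, 43.2 and 43.4 TPM in DMSO, 36.3, 35.0 and 33.6 TPM with dTAG-13 and 37.2, 39.4 and 38.9 TPM with Dox (-0.29, SE 0.05, adjusted p = 2.54e-04, and 0.14, SE 0.05, adjusted p = 0.0297). The second of these calls was lost without shERV dTAG-13 replicate 2 or 3 or Dox replicate 2 or 3 (adjusted p from 0.0597 to 0.126) and with the replicate block (adjusted p = 0.0562). Lefty1 was at 83.4, 93.9 and 90.7 TPM, then 67.3, 71.6 and 65.3 TPM, then 75.7, 73.4 and 72.4 TPM (-0.39, SE 0.05, adjusted p = 7.3e-05, and 0.12, adjusted p = 0.0855). Its Dox libraries lay between the other 2 groups without overlap. Smad7 was at 49.6 to 56.4 TPM in DMSO, 45.9 to 49.5 TPM with dTAG-13 and 52.9 to 54.6 TPM with Dox (-0.16, adjusted p = 0.0269, and 0.16, adjusted p = 0.0277), and both calls were lost on leaving out single libraries (dTAG-13 replicate 2 or DMSO replicate 2 or 3 for the first, adjusted p from 0.0823 to 0.106, and dTAG-13 replicate 2 or 3 or Dox replicate 2 or 3 for the second, from 0.0508 to 0.101). Lefty2 (22.9 to 29.6 TPM in DMSO and dTAG-13), Foxh1 (29.8 to 38.3 TPM) and Acvr2b (15.0 to 17.0 TPM) did not pass in either comparison. With centred libraries Lefty2 (-0.28, adjusted p = 0.0107) and Acvr2b (-0.19, adjusted p = 0.00372) passed lower with dTAG-13, and Lefty1 (0.19, adjusted p = 0.00598) and Acvr2b (0.16, adjusted p = 0.0112) higher with Dox.

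With dTAG-13, 5 of the 8 passed lower, beside 12.8% of the 16166 genes tested, and 4 passed higher with Dox against dTAG-13 alone, beside 17.5%. Neither comparison called a member, beside 3.82% and 3.45% of genes. At an unadjusted p below 0.05 were 6 and 5 members. The share of all genes at that p is at least the 54% and 46.8% that passed in either direction. Dox with dTAG-13 against DMSO passed no member in limma, beside 0.0619% of genes. At an unadjusted p below 0.05 were 4 members, without a count over all genes. Lefty1 had the largest difference (-0.27, SE 0.05, adjusted p = 0.121). The Dox libraries of Lefty1 and Nodal all lay below DMSO, which made 2 members, beside 1.27% of genes. With centred libraries Lefty1 (-0.37) and Tdgf1 (-0.19) passed, both with adjusted p = 0.0361. These 3 comparisons share libraries. The pluripotency markers summed to 1850 to 2170, 878 to 917 and 2100 to 2130 TPM in the 3 groups, and the fibroblast markers to 687 to 712, 689 to 774 and 728 to 752 TPM, and the part of the cell mixture in the differences was not tested. Of the 33 other pathway genes tested, 17 passed higher and 5 lower with dTAG-13, beside 41.2% and 12.8% of genes. With Dox against dTAG-13 alone 5 passed higher and 15 lower, beside 17.5% and 29.3%. Both counts of 5 were near the background. With Dox and dTAG-13 against DMSO none passed in limma, and 8 were at an unadjusted p below 0.05, again without a count over all genes.

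The change with 24 h of dTAG-13 was also compared between this line and the time course. It differed for 4 of the 8 genes (Acvr2b, Tdgf1, Gdf3 and Nodal), beside 51.4% of the 17653 genes tested, a share near the background. The first rests on Acvr2b at 40.1 to 44.3 TPM after 24 h in the time course and 15.0 to 16.1 TPM in the shERV line. Line, RNA kit and feeders cannot be told apart in it.

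**Figure D3:**
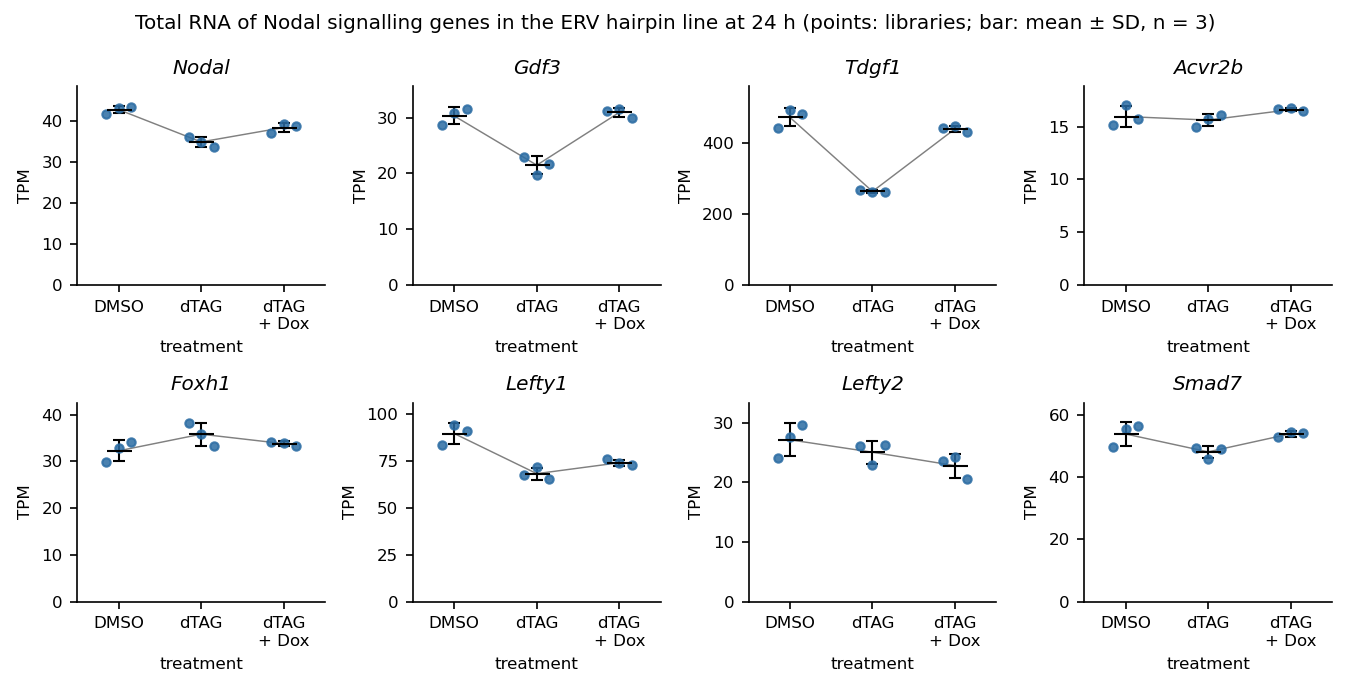
Total RNA (TPM) of the 8 genes in the shERV line in DMSO, after 24 h of dTAG-13 and after dTAG-13 with Dox, 3 libraries per group; points are libraries, bars the mean ± SD, and lines join the means. Tdgf1 falls from 445 to 493 TPM to 261 to 268 TPM with dTAG-13 and is at 432 to 449 TPM with Dox, and Gdf3 is lowest with dTAG-13 as well, while Acvr2b stays between 15.0 and 17.0 TPM.

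H3K27Ac and MED23 peaks lay near the 8 gene starts in DMSO, as at most expressed genes. All 8 genes had an H3K27Ac peak and a MED23 peak within 2 kb of the start in every DMSO library, beside 71.5% to 74% and 80.8% to 80.9% of 15017 expressed genes (1 TPM or more in each library of the DMSO mRNA group). RNAPII peaks were at 8 and 7 of the 8, beside 62% and 62.2%. At Lefty2 the H3K27Ac fold enrichment was only 2.39 and 4.66 in DMSO replicates 1 and 3. In replicate 2 it was 21.8, for a peak that reached the window from upstream. The RNAPII peak of Lefty2 was at 2.94 in DMSO replicate 1 and absent in replicate 2. H3K9me3, the mark deposited through TRIM28 at ERVs, had no peak within 2 kb of any of the 8 starts in the 6 libraries. Few expressed genes had one, 5.49% to 6.75% in DMSO and 0.539% to 3.24% with dTAG-13. The nearest H3K9me3 peak in DMSO was that of Gdf3, 2115, 2630 and 5238 bases from its start in the 3 libraries, with 6 to 9 peaks within 50 kb of the gene. After dTAG-13 no H3K9me3 peak was within 50 kb of Gdf3 in any library, where the nearest was 177474 bases away or more. Smad7 likewise had 2, 1 and 1 such peaks in DMSO and 0 in each dTAG-13 library, and Tdgf1 had 7, 5 and 5 against 0, 3 and 1. Lefty1 had 2, 2 and 4 against 0, 1 and 0, and Lefty2 2, 1 and 3 against 0, 1 and 0. Acvr2b had 1, 1 and 1 against 0, 1 and 1, and Foxh1 had none in either group. Such peaks within 50 kb were not counted over all genes. Nodal had no H3K9me3 peak within 50 kb in DMSO and 1 in dTAG-13 replicate 2. The dTAG-13 libraries held 11474, 105690 and 147611 H3K9me3 peaks in all, against 118318, 126470 and 104579 in DMSO. The part of these totals in the differences was not tested.

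In both DMSO libraries the MED23 peaks of Lefty1 and of the co-receptor were stronger than those of Nodal, Foxh1, Smad7, Gdf3 and Acvr2b. At Lefty1 the fold enrichment in DMSO was 97.5 and 98.9, against 18.6 and 21.9 with dTAG-13. At Tdgf1 it was 80.1 and 81.8 against 10.8 and 10.3. At Nodal it was 32.1 and 33.7 against 7.03 and 6.49, and at Foxh1 28.0 and 29.9 against 8.04 and 8.17. Smad7 had 23.4 and 26.1 against 6.36 and 9.10. Gdf3 had the closest values, with 12.95 and 13.7 against 9.86 and 10.3. Lefty2, with 142 in the first DMSO library for a peak that reached the window from upstream and 12.7 in the second, and Acvr2b, with 6.80 and 5.21, had no peak in the window after dTAG-13. At Lefty2 the nearest MED23 peak was then 2763 and 2894 bases from the start, outside the window of 2 kb. Within 50 kb of Lefty2 the highest fold enrichment was 320 and 295 in DMSO and 67.8 and 65.0 with dTAG-13. The dTAG-13 libraries held 15335 and 14551 MED23 peaks in all against 63045 and 58925 in DMSO, and 26.5% to 29.3% of expressed genes had one. With dTAG-13, 6 of the 8 genes had a MED23 peak in both libraries, 5 an RNAPII peak in both and 7 an H3K27Ac peak in all 3. H3K27Ac peaks were at 50.4%, 75.5% and 51.6% of expressed genes in the 3 dTAG-13 libraries. All shares of expressed genes are per library and not for every library of a group. Lefty2 had no H3K27Ac peak in the window in dTAG-13 replicates 1 and 3, where the nearest lay 2223 and 2337 bases from the start.

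RNAPII peaks were lower as well at most of the genes. Its fold enrichment in DMSO at Lefty1 was 23.4 and 21.0, against 6.33 and 6.10 with dTAG-13, and at Nodal 18.3 and 18.0 against 5.56 and 4.46. At Gdf3 it was 11.2 and 9.95 against 10.6 and 8.16, overlapping. At Tdgf1 it was 6.48 and 7.33 against 4.84 and 4.50. At Smad7 it was 12.0 and 11.7 against 5.19 and 3.51, and at Foxh1 11.6 and 10.7 against 4.13 and no peak. Acvr2b, with 9.58 and 12.1 in DMSO, had no peak in the window with dTAG-13, and neither had Lefty2. Nascent RNA of Nodal and Acvr2b passed higher at 24 h, as given above, that of Acvr2b depending on the scaling. Its relation to the RNAPII peaks was not tested. Total RNAPII peaks in DMSO numbered 19853 and 19194, against 8182 and 7689 with dTAG-13, and 33% to 35.9% of expressed genes had one. H3K27Ac varied among the dTAG-13 libraries. In DMSO it was 18.9, 22.2 and 25.5 at Smad7, against 7.89, 28.9 and 5.39 with dTAG-13, whose libraries held 30259, 117348 and 45662 peaks. For Gdf3 it was 9.02, 13.8 and 12.7 against 12.4, 13.7 and 11.6. No test was run on peaks, since the smallest two-sided p of an exact permutation is 0.1 for 3 libraries against 3 and 0.333 for 2 against 2. Fold enrichment is relative to the background of its own library, so the part of library quality in these differences cannot be told apart from that of treatment. The paper describes its RNAPII ChIP as made with a reference exogenous genome, and the values were not rescaled by it here.

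**Figure D4:**
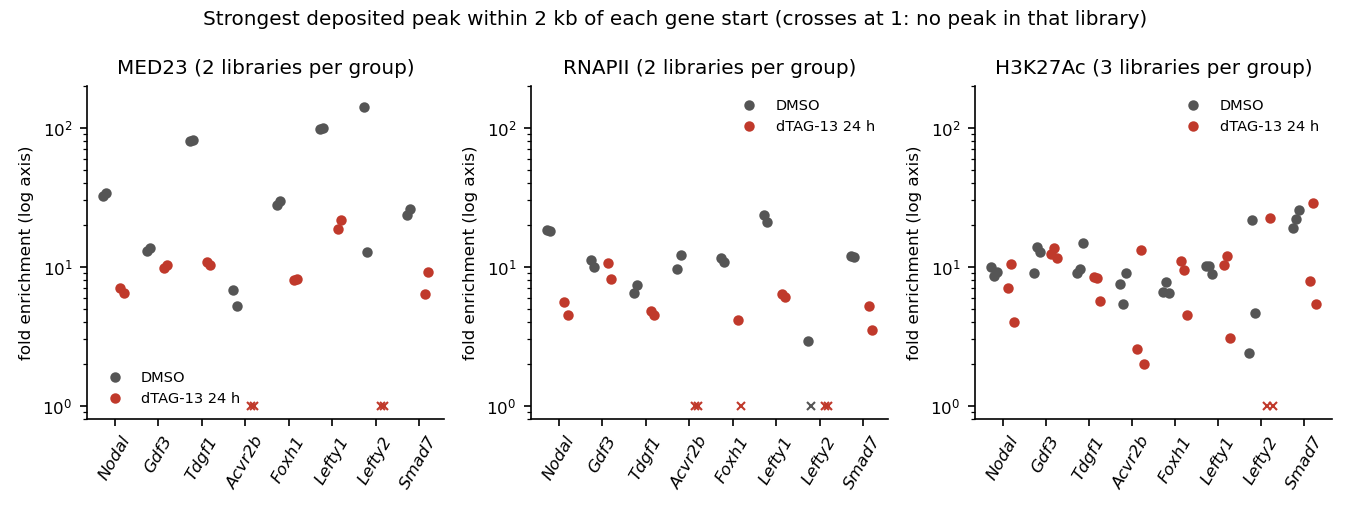
Fold enrichment (log axis) of the strongest deposited peak within 2 kb of the start of each of the 8 genes for MED23, RNAPII and H3K27Ac, in DMSO (grey) and after 24 h of dTAG-13 (red); each symbol is a library, and crosses at 1 stand for no peak. MED23 at Lefty1 and Tdgf1 lies near 100 and 80 in DMSO and at 10.3 to 21.9 after dTAG-13, whereas Gdf3 stays close to its DMSO values.

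Over the 15 libraries of the mRNA time course, Nodal, Lefty1, Lefty2 and Tdgf1 were each compared with 11926 genes with a mean of at least 5 TPM, by Pearson's r of log2(TPM + 0.5). These libraries share 5 group levels, which alone can give high values, and no p is given. Nodal was most like Trib2 (r = 0.975) and Srsf7 (0.974). Lefty1 was most like the pluripotency factor Esrrb (0.995) and Dppa5a (0.995), and Tdgf1 like Adam23 and Utf1 (both 0.998). Lefty2 was most like Uhrf1 (0.994) and Aire (0.992). Esrrb went from 108 TPM in DMSO to 6.84 TPM at 96 h and Dppa5a from 1840 to 118 TPM.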

How the data were processed

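Groups were taken from the sample labels. The authors trimmed reads with cutadapt 2.4, mapped RNA-seq reads to mm10 with STAR 2.7.5a and deposited StringTie 2.0.6 gene tables with TPM and FPKM, scaled to transcript length and depth, and with coverage, a signal used only for relative depth. TT-SLAM-seq FPKM were deposited per gene after the authors mapped with SLAM-DUNK and counted converted reads, and the values fit the gene span as length, so each is lowered for genes with long introns relative to exon-based values. ChIP-seq peaks were called by the authors per library with MACS2 after BWA mapping, and deposited with a fold enrichment ratio and −log10 p and q values. Of these, the fold enrichment was used, and the −log10 values were left aside.

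From there, log2(value + 0.5) was fitted with limma 3.58.1 (R 4.3.3, trend), with Benjamini-Hochberg adjustment over all genes with at least 0.5 FPKM or 1 TPM in 3 or more libraries. The design fixed this test because the values are not counts. Genes named beyond the members were other pathway genes called in TT-SLAM-seq or the RNA-seq time course, and the 2 genes most like Nodal, Lefty1, Lefty2 and Tdgf1. A pathway gene that met this rule is not reported here. Members and lists were chosen with earlier results of these data known. The fit was tested on simulated data with independent noise. These held no library effect or shift in scaling, so the test does not bear on either. The annotation was GENCODE vM21, whose positions were the same for 53225 of 53229 shared gene IDs, and sequences were read from GRCm38.p6. Alternatives covered pseudocount, filter, centring, FPKM, block, single libraries and peak windows. No column of the tables was left unmapped, and other assays of the series were not analysed here.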

Additional observations from a re-analysis of the deposited data

Results flagged for a closer look

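Each of these 4 results was marked because the change with dTAG-13 at 24 h was not the same in the time course and the shERV line, by an interaction term in limma. Acvr2b rose in the time course (log2 difference 0.80) and not in the shERV line (-0.03, adjusted p = 0.702), a difference of -0.83 (SE 0.09, adjusted p = 2e-05), beside 51.4% of 17653 genes that passed this term. Tdgf1 fell by 0.54 on the log2 scale in the time course and by 0.84 in the shERV line, a difference of -0.30 (SE 0.07, adjusted p = 0.00229). Gdf3 fell by 0.77 and 0.49, a difference of 0.28 (SE 0.09, adjusted p = 0.016). Nodal had differences of -0.04 and -0.29, the second past the threshold, which differed by -0.25 (SE 0.06, adjusted p = 0.00491). With centred libraries the values were -0.71, -0.18, 0.40 and -0.13, and the last missed the threshold (adjusted p = 0.102). The time course used an mRNA kit and the shERV line total RNA, and the fibroblast markers summed to 91.1 to 96.6 TPM in DMSO in the former and 687 to 712 TPM in the latter, so line, kit and culture cannot be told apart. Groups of 3 libraries were too small for a test of single outlying libraries.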

How the results depend on the processing

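The p-values rest on 3 libraries per group, the nascent values of Lefty2 and Foxh1 on the fewest reads, and the RNA-seq files give no counts. Of 1599 settings over the 8 genes, 1482 kept direction and side of the threshold, 51 lost a call, 30 gained one and 36 turned direction, of which 1 (Smad7 mRNA at 96 h) had passed. Of 201 settings on the number of members called, 199 gave that number again. The voom fit and no other setting was chosen after seeing the data, and the causes of these changes were not tested. With libraries centred on their median, 1 member was called in mRNA at 24 h (Gdf3) and 1 in the shERV line with dTAG-13 (Tdgf1), where none was before. Centring turned nascent Lefty1 at 6 h (-0.058) and Lefty2 at 24 h (-0.118), mRNA Foxh1 at 24 h (-0.214) and Smad7 at 96 h (-0.136), and shERV Foxh1 with dTAG-13 (-0.015). For Dox with dTAG-13 against DMSO it turned Gdf3 (-0.062), Foxh1 (-0.025), Smad7 (-0.089) and Acvr2b (-0.035), and for the difference between line and time course Lefty1 (0.076). With voom, nascent Nodal (-0.016) and Lefty1 (-0.09) at 6 h and Lefty2 at 24 h (-0.081) turned. With FPKM in place of TPM, Gdf3 at 2 h (0.004), Gdf3 (-0.011) and Smad7 (-0.037) for Dox with dTAG-13 against DMSO, and Lefty2 (-0.063) and Smad7 (-0.032) for the difference between lines turned. Leaving out single libraries gave ranges across 0 for nascent Lefty1 at 6 h (-0.132 to 0.119), mRNA Gdf3 at 2 h (-0.034 to 0.003), shERV Acvr2b with dTAG-13 (-0.065 to 0.018), Gdf3 (-0.01 to 0.059) and Smad7 (-0.054 to 0.038) for Dox with dTAG-13 against DMSO, parental Acvr2b (-0.05 to 0.048), and Lefty2 (-0.076 to 0.068) and Smad7 (-0.018 to 0.092) for the difference between lines. The mean number of members with a peak per library was 7 of 8 for H3K27Ac and for MED23 in DMSO among the 10000 strongest peaks, and 6.33 for H3K27Ac with dTAG-13. Over the gene and 10 kb on either side it was 8 for H3K27Ac and 8 for MED23 with dTAG-13, 6.5 for RNAPII with dTAG-13, and 1.33 in DMSO and 0.33 with dTAG-13 for H3K9me3. Within 1 kb it was 4.5 for MED23 with dTAG-13. Over all genes, the nascent count called at 24 h was 454, against 940 with voom, 1102 with a pseudocount of 0.1, 241 with a pseudocount of 1 and 60 among genes with a mean of at least 5. At 2 and 6 h it was 30 and 76, against 100 and 144 with voom, and between 11 and 57 and between 27 and 135 without single libraries. In mRNA at 24 h it was 2179, against 1263 with FPKM and 985 among genes with a mean of at least 5. Samples with the same replicate number did not all deviate together (correlations of -0.205 to 0.177), though at 6 h, at 96 h and in NPCs all 3 mRNA pairs correlated best with their own number. With the replicate number as a block, 1 of 112 results lost its call, Nodal with Dox against dTAG-13 alone (0.137, adjusted p = 0.0562), and no other call changed.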
